A study of Mus musculus with 28 samples.

Results

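Distal regions that carried acetylated lysine 27 of histone H3 (H3K27Ac) at day 3 of osteocyte differentiation and lay outside every H3K27Ac region at day 35 are described here. They were chosen by the H3K27Ac lists alone: a day-3 region on chromosomes 1 to 19, under 15 kb wide, over 2 kb from any protein-coding transcription start site (TSS) and with no overlap with a day-35 region. Of 67163 day-3 regions, 51942 met the first 3 conditions, and 11188 of these (21.5%) were acetylated only at day 3, which is the choice itself and not a result. The other 40754 distal regions overlapped day-35 H3K27Ac. The day-3-only regions are called members below.

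The study followed IDG-SW3 cells, a single clonal mouse line made from bone of mice that carry a conditional, interferon-inducible T antigen and a green fluorescent reporter driven by the Dmp1 promoter. Cells were grown at 33 °C with interferon gamma, then moved to 37 °C in osteogenic medium with ascorbic acid and β-glycerol phosphate and without interferon gamma. Chromatin immunoprecipitation with sequencing was done for 9 histone marks at day 3 and at day 35 in the basal state, with 1 library per mark and day. Binding of VDR, the receptor for vitamin D, and of its heterodimer partner RXR was mapped at day 35, 3 h after vehicle or 100 nM 1,25(OH)2D3 was added, with 2 libraries per arm. A mark or site was counted on a region when it overlapped it by at least 1 bp, and a factor site had to be called in both replicates. The files hold regions and the authors' peak scores only, so sequencing depth is unknown, no test between days was possible, and every interval given is a 95% Wilson interval that covers counting error only.

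H3K27Ac marks enhancers and promoters that are in use, and H3K4me1 marks enhancers whether or not they are in use, so a region that loses the first and keeps the second is often described as primed or as a formerly active enhancer. H4K5Ac, H3K9Ac and H3K4me2 also accompany active regulatory DNA, while H3K36me3 covers the bodies of transcribed genes. Transcription factors such as AP-1, RUNX and the interferon-responsive IRF proteins can recruit enzymes that place marks of active enhancers such as H3K27Ac.

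Windows of 300 bases at the centres of 6 members show the kinds of region involved. They are on the + strand of mm9, 5′ to 3′, in lower case with the searched motifs in capitals. The first was the highest-scoring member that had lost H3K4me1 by day 35, on chromosome 14 far from Dach1, and it held none of the 14 motifs. The next pair overlapped H3K4me1 at both days. One lies 146 kb from the Chic2 TSS (with the AP-1, RUNX and NF-kB letters). The other lies 177 kb from the Gm10306 TSS (AP-1, RUNX and FOX), and H3K4me1 covered 100% of that member at day 3 and 33.4% at day 35. The last 3 are named by their nearest TSS, each of a gene of interest, and were picked after their values were seen. The Gbp2 window holds AP-1, ISRE core, GAS and CTCF core letters, and the Msx2 window TEAD and AP-1. The Jun window holds the ISRE core and GAS letters, which share bases, but no member lay within 50 kb of Jun.
Dach1 chr14:97798654-97798953: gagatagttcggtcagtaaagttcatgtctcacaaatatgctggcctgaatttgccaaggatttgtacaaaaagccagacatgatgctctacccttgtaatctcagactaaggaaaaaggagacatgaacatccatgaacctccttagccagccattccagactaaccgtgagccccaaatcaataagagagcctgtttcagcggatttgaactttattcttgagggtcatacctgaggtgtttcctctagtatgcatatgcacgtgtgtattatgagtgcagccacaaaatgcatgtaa
Chic2 chr5:75293109-75293408: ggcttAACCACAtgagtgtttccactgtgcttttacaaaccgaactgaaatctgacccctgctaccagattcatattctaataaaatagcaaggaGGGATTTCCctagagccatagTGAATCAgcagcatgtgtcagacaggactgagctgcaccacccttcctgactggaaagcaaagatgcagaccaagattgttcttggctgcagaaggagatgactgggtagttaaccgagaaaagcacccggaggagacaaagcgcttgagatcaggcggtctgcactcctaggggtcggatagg
Gm10306 chr4:94044114-94044413: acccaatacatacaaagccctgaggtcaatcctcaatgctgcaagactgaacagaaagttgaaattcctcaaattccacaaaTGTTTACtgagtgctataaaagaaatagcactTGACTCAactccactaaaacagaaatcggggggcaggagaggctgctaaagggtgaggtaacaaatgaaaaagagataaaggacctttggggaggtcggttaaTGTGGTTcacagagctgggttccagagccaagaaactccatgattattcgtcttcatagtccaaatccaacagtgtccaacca
Gbp2 chr3:142303158-142303457: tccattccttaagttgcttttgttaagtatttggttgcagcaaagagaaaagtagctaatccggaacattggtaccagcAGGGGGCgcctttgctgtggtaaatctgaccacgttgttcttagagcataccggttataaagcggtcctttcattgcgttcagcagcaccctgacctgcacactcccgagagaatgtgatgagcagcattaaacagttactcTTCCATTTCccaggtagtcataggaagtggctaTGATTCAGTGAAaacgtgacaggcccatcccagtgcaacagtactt
Jun chr4:94909912-94910211: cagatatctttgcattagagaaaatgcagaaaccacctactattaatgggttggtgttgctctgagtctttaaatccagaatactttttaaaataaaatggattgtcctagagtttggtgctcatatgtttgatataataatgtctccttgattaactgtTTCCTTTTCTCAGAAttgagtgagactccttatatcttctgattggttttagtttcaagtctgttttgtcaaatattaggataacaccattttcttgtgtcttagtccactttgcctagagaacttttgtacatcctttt
Msx2 chr13:53582755-53583054: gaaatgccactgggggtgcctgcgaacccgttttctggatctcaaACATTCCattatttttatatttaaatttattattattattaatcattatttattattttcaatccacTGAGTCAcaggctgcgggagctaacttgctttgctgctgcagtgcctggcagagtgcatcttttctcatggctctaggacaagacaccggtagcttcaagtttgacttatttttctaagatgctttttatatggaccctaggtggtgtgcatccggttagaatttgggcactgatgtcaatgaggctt

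H3K4me1 outlasted H3K27Ac at most members. At day 35, 7067 members (63.2%, interval 62.3% to 64.1%) still overlapped or newly overlapped an H3K4me1 region and 4121 (36.8%) did not, where 88.9% of all distal day-3 regions and 95.9% of the other distal regions did. Following both days, 6934 members (62.0%) had H3K4me1 at day 3 and day 35, and 2409 (21.5%) had it at day 3 only. It was at neither day on 1712 members (15.3%) and at day 35 only on 133 (1.19%). This split is given for members only. In each of 5 classes of day-3 score, fewer members than other regions had H3K4me1 at day 3, with 76.4% against 83.75% in the lowest. That lowest class held 1173 of the 1712 members. Of members that carried H3K4me1 at day 3, 74.2% carried it at day 35, against 98.3% of the other regions. The whole H3K4me1 lists covered 344 Mb at each day. Where H3K4me1 was present at both days, the median member was covered by it over 97.7% of its length at day 35. Among the highest-scoring of these members, that coverage ranged from 13.3% (nearest TSS Ptprf) to 94.6% (Chic2), so an overlap can be a small remnant. The 1712 members without H3K4me1 at either day lack the mark that defines an enhancer here, and are called regions rather than enhancers.

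Members were weak and narrow at day 3. Their median width was 754 bp, against 1854 bp in the other distal regions, and their median deposited H3K27Ac score was 14.5 against 79.6. Distance to the nearest protein-coding TSS was similar, with medians of 33.6 kb and 33.3 kb. When all distal regions were split by score into 5 classes of nearly equal size, members made up 51.3% of the lowest class and then 33.7%, 17.0%, 4.96% and 0.453% of the highest. Width and score come from the same H3K27Ac list that the rule used, and a wider region can more easily touch a day-35 region. The fall over the classes is therefore description and not a separate result about members. Within those same classes 55.0%, 66.7%, 74.7%, 82.7% and 89.4% of members had H3K4me1 at day 35, against 86.7%, 92.7%, 96.4%, 98.5% and 99.7% of the other regions. The members' share with H3K4me1 thus rose over these 5 classes, though with 10 classes it was 83.4%, 80.8%, 90.5% and 80.0% over the highest 4, the last of only 5 members. In each of the 5 classes the members' share was below that of the other regions. The lowest score in the list was 5.6 at day 3 and 5.3 at day 35, and 25% of members scored 6.4 or less. How many of them kept some H3K27Ac below the limit of the authors' list was not tested.

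**Figure D1:**
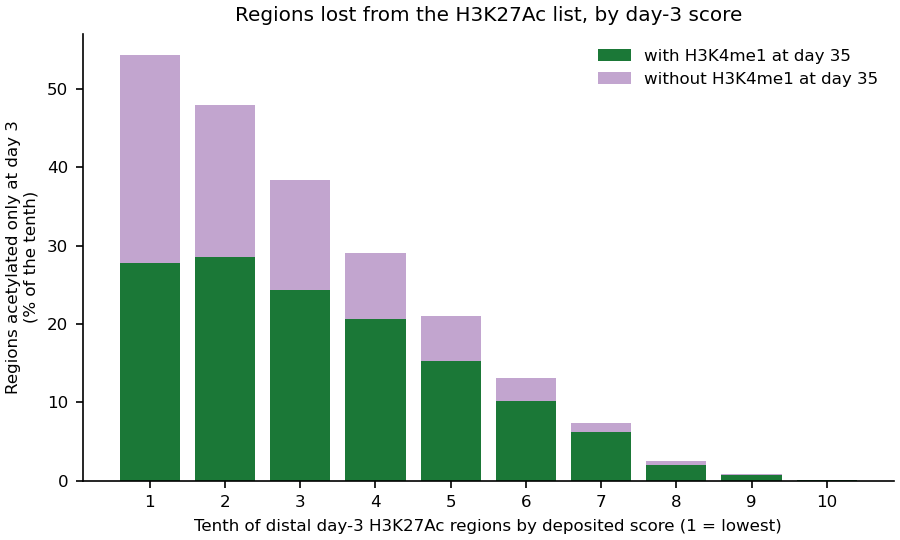
Share of distal day-3 H3K27Ac regions that were acetylated only at day 3 (y axis, % of each class), by 10 classes of deposited day-3 score from lowest to highest (x axis), split by H3K4me1 at day 35. The share fell from 54.3% in the lowest class to 0.0963% in the highest, where members were 5 of 5193 regions. The score comes from the same list that the rule used.

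H4K5Ac, H3K9Ac and H3K4me2 were more frequent at day 35 on members with H3K4me1 than on those without, while H3K36me3 (11.5% with, 41.9% without) and H4K20me1 (16.3% with, 22.8% without) ran the opposite way. H4K5Ac lay on 78.2% of members at day 3 and 48.1% at day 35, where 85.6% of all distal regions had it at day 35 and the other distal regions went from 93.9% to 95.8%. H3K9Ac went from 29.6% to 17.3% of members, against 55.1% of all distal regions at day 35. H3K4me2 went from 23.2% to 30.2% of members, while all distal regions went from 45.9% to 62.6% and the whole H3K4me2 list grew from 87.6 Mb to 130 Mb. In the lowest classes by score, 1 and 2 of 5, H3K4me2 at day 3 lay on 12.7% and 25.8% of members. It lay on 9.51% and 21.3% of the other regions there. H3K9Ac at day 3 lay on 14.5% and 34.1% of these members, against 12.3% and 30.9%. In the higher classes at day 3, and in every class at day 35, members had the lower share of both marks. Members that had H3K4me1 at both days carried H4K5Ac at 86.1% and then 63.7%, H3K9Ac at 38.4% and then 23.8%, and H3K4me2 at 32.8% and then 43.4%. Members that had H3K4me1 at day 3 only began with nearly as much H4K5Ac, 80.6%, and ended with 26.5%, while H3K9Ac went from 22.6% to 8.01% and H3K4me2 stayed at 11.1% and 11.6%. Of 8595 members with no H3K4me2 region at day 3, 1315 (15.3%) had one at day 35, against 36.7% of all such distal regions. Among the 4660 of these members that had H3K4me1 at both days, 1140 (24.5%) had one at day 35.

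Loss of H3K27Ac was not loss of all acetylation. At day 35, 5860 members (52.4%) overlapped an H4K5Ac or an H3K9Ac region, against 86.9% of all distal regions. The share was 68.8% in those with H3K4me1 at both days and 29.6% in those that had lost H3K4me1. Some of these overlaps were new for the mark. Of 2443 members without H4K5Ac at day 3, 390 (16.0%) had it at day 35. Of 7874 members without H3K9Ac at day 3, 504 (6.40%) had it at day 35. Shares over all distal regions are not set beside these, so such gains are not read as a trait of members. H3K4me1 with neither H4K5Ac nor H3K9Ac was found at day 35 on 2220 members (19.8%), against 1.99% of the other distal regions. At the far end, 1361 members (12.2%) overlapped no region of any of the 9 marks at day 35, among them 37.4% of the members that had lost H3K4me1. The share of all distal regions was 2.62%, and none of the other distal regions could be counted, since day-35 H3K27Ac is one of the 9 marks. H3K9me3, a mark of silent chromatin, lay on 3.99% of members at day 3 and 0.903% at day 35. The other distal regions went from 6.20% to 0.697%.

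**Figure D2:**
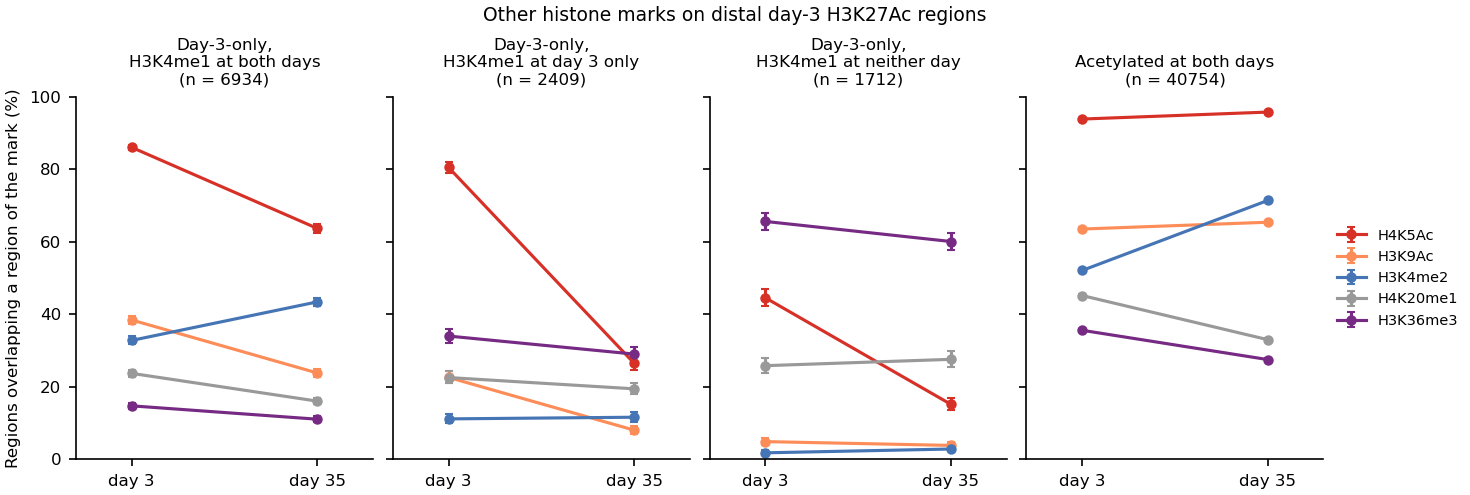
Share of regions that overlapped a region of each mark (y axis, %) at day 3 and day 35 (x axis), for members by their H3K4me1 and for regions acetylated at both days; bars are 95% Wilson intervals. H4K5Ac went from 80.6% to 26.5% where H3K4me1 was lost and from 86.1% to 63.7% where it was kept, and H3K36me3 at day 3 was highest, 65.7%, on members with H3K4me1 at neither day.

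Members with H3K4me1 at neither day lay mostly inside genes covered by H3K36me3. Of the 1712 with H3K4me1 at neither day, 61.2% lay in introns and 8.59% on exons, and 65.7% overlapped H3K36me3 at day 3 and 60.1% at day 35. Of all distal regions, 48.3% lay in introns, 3.76% on exons, and 33.7% and 26.5% overlapped H3K36me3 at the 2 days. Of the 6934 with H3K4me1 at both days, 56.5% were intergenic and 14.7% overlapped H3K36me3 at day 3. Among all members, 35.4% of the 3010 with H3K36me3 at day 3 had H3K4me1 at day 35, against 73.4% of those without, and in the other distal regions the same split gave 89.9% and 99.2%. A gap in the same direction was seen within the lowest score class. In this lowest score class, intronic members with H3K36me3 had H3K4me1 at day 35 in 27.9% of 1306 cases, and those without it in 70.5% of 1336 cases, and intergenic members in 25.4% of 130 and 64.9% of 2369 cases.

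The distance from members to day-35 acetylation was measured without a background. The median gap from a member to the nearest day-35 H3K27Ac region was 7.37 kb, 3.88% lay within 1 kb of one and 60.0% within 10 kb. The day-35 list holds 67302 regions over 270 Mb, and how often any position lies that close was not measured. These distances are therefore not a trait of members. The members' share of all distal regions ranged from 15.9% on chromosome 17 to 27.2% on chromosome 4. In the reverse direction, 15350 of 51895 distal day-35 H3K27Ac regions (29.6%) overlapped no day-3 region. At the edges of the definition, the widest member was 13182 bp, the nearest lay 2008 bp from a TSS, 902 regions were left out by the TSS limit alone, and 86 of the other distal regions were kept out by an overlap of less than 10% of their length.

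A few neighbourhoods held long runs of members. The genes that were nearest to most members were Lphn2 (38 of its 81 distal regions), which encodes an adhesion receptor, Cdh18 (37 of 45), a cadherin, Cited2 (33 of 85), a co-regulator that binds CBP and p300, Zfpm2 (30 of 43), a cofactor of GATA factors, and the predicted gene Gm10306 (29 of 35). Ttll7 (27 of 62), Efna5 (21 of 62), Tox (20 of 38), Adamts5 (20 of 56), the aggrecanase, and Sox5 (20 of 48), a cartilage transcription factor, followed. The gene Cdh18 is 925 kb long and Sox5 954 kb, and long genes can gather many regions. H3K4me1 varied among these genes: 16 of 20 Tox members and 15 of 21 Efna5 members had it at day 35, against 14 of 37 at Cdh18. Unbroken runs were looked for after the values were seen, and are named by nearest TSS at any distance. The longest were 14 members over 196 kb at Gm10306 on chromosome 4 (5 with H3K4me1 at day 35) and 13 members over 246 kb at Angpt1, an angiopoietin, on chromosome 15 (13 with H3K4me1). At 12 neighbouring members over 117 kb near Map4k4 and Il1r2 on chromosome 1, all 12 had it, and at 12 near Cdh12 and Cdh18 on chromosome 15, 3 did.

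**Figure D3:**
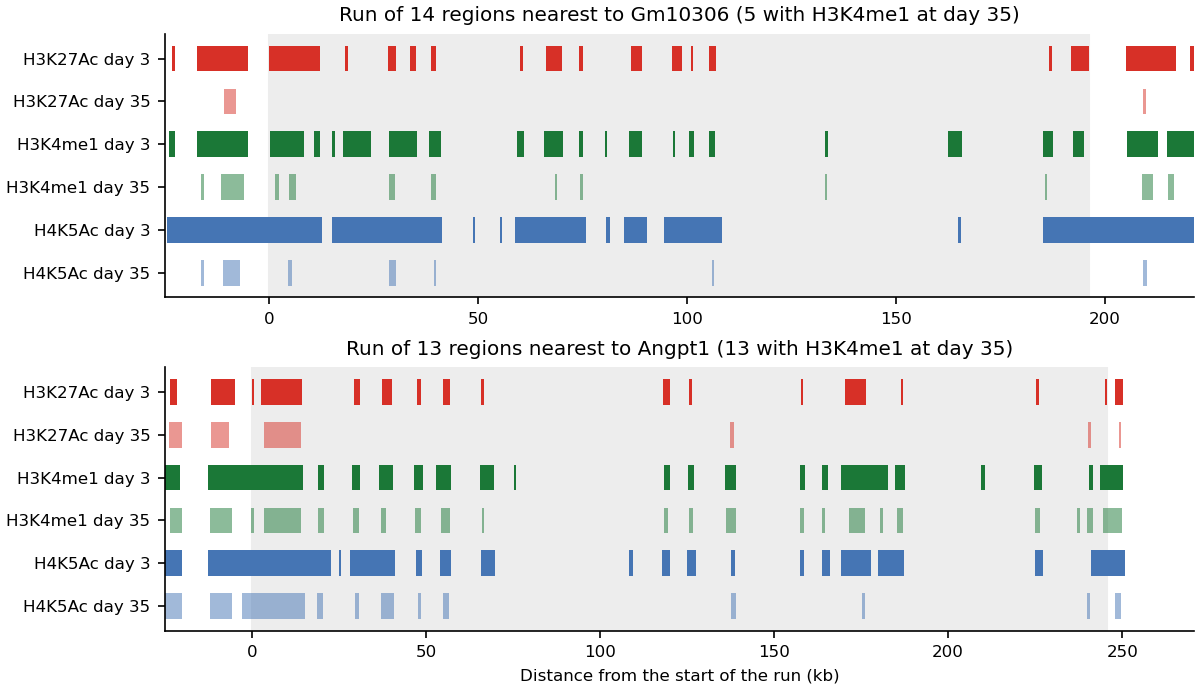
Regions of 3 marks at day 3 and day 35 (rows) along the runs that have Gm10306 and Angpt1 as nearest genes. The x axis is distance from the start of the run in kb and grey marks the run. The Gm10306 run has 5 members with H3K4me1 at day 35 and the Angpt1 run 13; the wide region kept at the start of the Angpt1 run lies at a TSS and is no member.

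Single members show the range. The one 764 kb downstream of the Dach1 TSS (chr14:97793186-97804421, score 706.0) was intergenic, with its nearest day-35 H3K27Ac region 1640 kb away. At day 3 H3K4me1 covered 98.9% of it, H4K5Ac 100%, H3K9Ac 78.4% and H3K4me2 53.7%, and at day 35 all 4 covered 0%. The member 146 kb from the Chic2 TSS (chr5:75291798-75294720, score 421.2) kept nearly everything else. H3K4me1 covered 92.8% and then 94.6% of it, H4K5Ac 100% at both days and H3K9Ac 64.0% and then 58.1%. It held an RXR site at day 35 under both vehicle and hormone. The member 390 kb from the Gm10306 TSS (chr4:93821547-93833688, score 532.0) lay between these, with H3K4me1 going from 78.1% to 20.8% of its length and H4K5Ac from 100% to 7.95%. The highest-scoring member of all (chr8:122746575-122759756, score 707.8, 45.2 kb from the Fam92b TSS) went against the pattern, since H3K4me1 covered none of it at day 3 and 100% at day 35, and H4K5Ac covered all of it at both days. Its central 300 bases were 78.7% G and C, against a median of 44.0% in members.

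Among the 10 strongest members without H3K4me1 at day 35, 4 had H3K36me3 over their whole length at one day or both. By the looser measure of any overlap at either day, H3K36me3 lay on 49.5% of all members without H3K4me1 at day 35. It lay on 29.0% of all members. By this looser measure, the strongest members nearest to Gm10306 (21.7% of its length at day 3) and Faf1 (18.7%) also had H3K36me3. The 4 are examples and are not read as a trait of the strongest. The member at Atr, the checkpoint kinase gene (chr9:95765537-95770767), had H3K36me3 over 100% of its length at both days while H3K4me1 went from 83.2% to 0% and H4K5Ac from 100% to 0%. The member at Rad18, a DNA repair ubiquitin ligase gene (chr6:112612851-112615357), had H3K36me3 over 100% at both days and H3K4me1 going from 61.0% to 0%. At Rptor, a subunit of the mTORC1 kinase complex, H3K36me3 went from 5.92% to 100% of the member and H3K4me1 from 87.8% to 0%. At Ankrd9 H3K36me3 went from 100% to 35.5% and H3K4me1 from 60.9% to 0%.

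Genes of the interferon response were near many members. Of the 73 distal day-3 regions within 50 kb of the 20 genes of this list, 30 were members (41.1%, interval 30.5% to 52.6%), against 21.0% of the distal regions within 50 kb of any protein-coding gene. A member lay within 50 kb of 19 of the 20 genes, where 46.4% of all protein-coding genes had one, and neighbours such as Gbp2 and Gbp3 share members. Of median score 23.45, these members were stronger than members near any gene, 13.8. H3K4me1 was present at day 35 on 13 of the 30 (43.3%, interval 27.4% to 60.8%), against 61.4% of members near any gene. Near Ciita, which switches on MHC class II genes, a member (chr16:10508722-10513110) lost H3K4me1, H4K5Ac and H3K36me3. Both members nearest to Irf8 (scores 6.8 and 6.4) lost H3K4me1 and H4K5Ac, as did the one nearest to Gbp3 (score 12.4). Gbp2, an interferon-induced GTPase, had 1 member in an intron with H3K4me1 at neither day, and 1 beyond it (chr3:142302716-142303900) that held H3K4me1 over 100% and then 88.1% of its length and H4K5Ac over 100% and then 75.4%, and whose sequence is printed above. Interferon gamma was in the growth medium before differentiation and not in the osteogenic medium of either day. The part of its withdrawal in these values was not tested.

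Members made up 11 of the 85 distal regions within 50 kb of the osteoblast genes (12.9%, interval 7.38% to 21.7%, which holds the 21.0% of all genes) and 4 of the 59 near the osteocyte genes (6.78%, interval 2.67% to 16.2%). Counted by gene, 8 of 18 osteoblast genes (44.4%) and 4 of 12 osteocyte genes (33.3%) had a member within 50 kb, against the 46.4% of all genes given above. Sp7, an osteoblast transcription factor, Col1a2, a collagen I chain, and Pth1r, the parathyroid hormone receptor, had 1 each. So did Sparc, Ibsp, Bglap and Bglap2 of the osteoblast list, and neighbours can share a member. The osteocyte genes Mepe, Cd44, Gja1 and Dkk1 also had 1 each. No member lay within 50 kb of Runx2, the osteoblast master factor, which had 14 other distal regions, nor of Dmp1 with 8, Tnfsf11 with 3 or Sost with 1. Msx2, a homeobox factor of early bone formation, was the one osteoblast gene of the list that was the nearest gene of a member: all 4 of the distal regions nearest to it were members, and all 4 had H3K4me1 at both days. The one at chr13:53582247-53583563 (score 32.0, printed above) held H3K4me1 over 100% of its length at both days, H3K4me2 over 37.6% and then 67.8%, and H4K5Ac over 100% and then 0%. Genes of FGF and ERK feedback had the lowest share, 13 of 194 (6.70%). Chondrocyte genes had a high share, 38 of 108 (35.2%), and Sox5 and Sox6 were the nearest genes of 20 and 9 members. The neural list reached 41.2%, from 7 of 17 regions, but these members lay near 2 of its 6 genes only, 4 near Map2 and 3 near Gfap. Near proliferation genes 13 of 51 regions were members (25.5%). All 3 members nearest to Mki67, a cell-cycle antigen, kept H3K4me1, and none lay near Top2a.

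**Figure D4:**
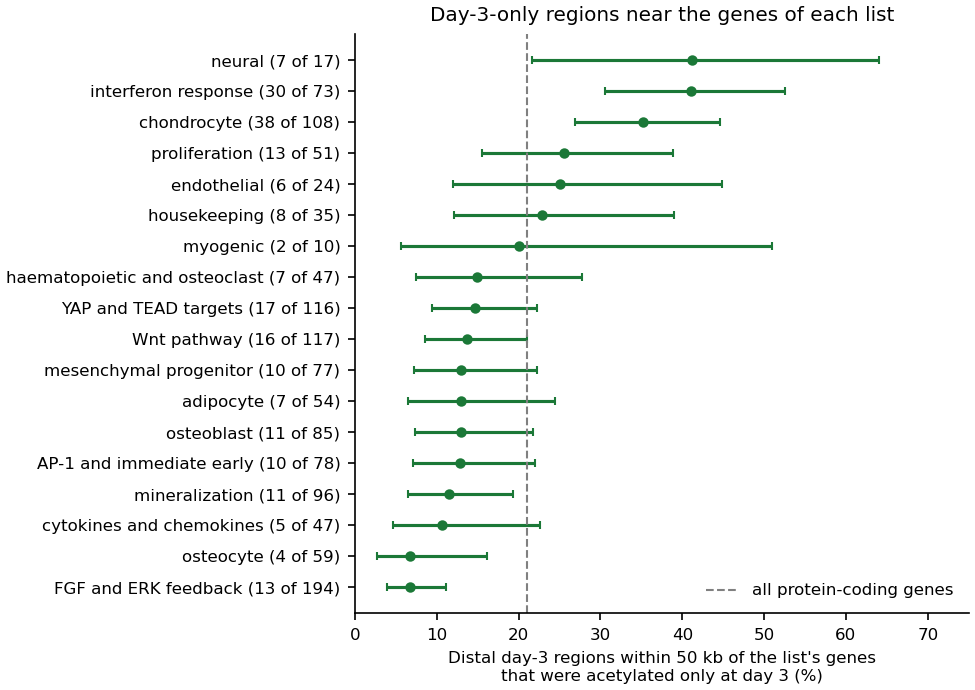
Share of distal day-3 regions within 50 kb of each list's genes that were members (x axis, %), with the count of members and of regions beside each list; points are shares, bars 95% Wilson intervals and the dashed line all protein-coding genes (21.0%). The intervals of the neural, interferon response and chondrocyte lists lie wholly above the line. They treat neighbouring regions of a gene as independent, and the neural members lie near 2 of 6 genes only. The points of 3 more lists (proliferation, endothelial, housekeeping) lie above it, and FGF and ERK feedback genes sit lowest at 6.70%.

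Motif shares differed between members that kept and lost H3K4me1. The AP-1 letters TGANTCA, on either strand, were found in the central 300 bases of 11.1% of members (interval 10.5% to 11.7%), of 15.0% of the other distal regions and of 14.1% of all distal regions. They were found in 11.9% of members with H3K4me1 at both days, in 8.22% of those with it at day 3 only and in 11.8% of those with it at neither day. The RUNX letters TGTGGTT were found in 8.91%, 6.43% and 6.13% of these 3 classes, against 10.0% in the other regions and 9.57% in all. The ISRE core letters GAAANNGAA, the pattern bound by IRF complexes in interferon-responsive genes, ran the other way: 18.6% of members with H3K4me1 at day 3 only held them, 14.3% of those with it at both days, 11.9% of those with it at neither day and 11.8% of the other regions, where 12.4% of all distal regions did. The ISRE letters are poor in G and C, and members that lost H3K4me1 had a lower median G and C content, 42.3% against 45.0% in the other regions. Within the class of lowest G and C, up to 41.3%, the shares were 22.6% and 15.4%, within the middle class 18.4% and 11.9%, and within the highest class 11.2% and 8.36%. The GAS letters TTCNNNGAA, named for interferon gamma-activated sites, were found in 11.4% of members that lost H3K4me1, 10.8% of the other regions and 10.9% of all, and the NF-kB letters GGGANTTCC in 1.25%, 1.03% and 1.05%. In the same order, TEAD (ACATTCC) was found in 6.14%, 6.08% and 6.06%, FOX (TGTTTAC) in 5.35%, 4.80% and 4.85%, the CTCF core (AGGGGGC) in 2.86%, 3.32% and 3.34%, SOX (AACAATG) in 5.06%, 5.04% and 5.06%, and the E-box CATCTG in 20.7%, 23.4% and 23.1%. C/EBP (TTGCNNAA) was found in 14.7%, 14.3% and 14.3%, GRE (ACANNNTGT) in 10.5%, 10.2% and 10.2%, the homeobox letters TAATTA in 9.17%, 8.34% and 8.38%, and CRE (TGACGTCA) in 0.166%, 0.267% and 0.256%. These shares lay close together for all but the E-box, and motifs can share bases, as AP-1 and GAS do in the Gbp2 window. A match is a description of letters and not a bound site.

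**Figure D5:**
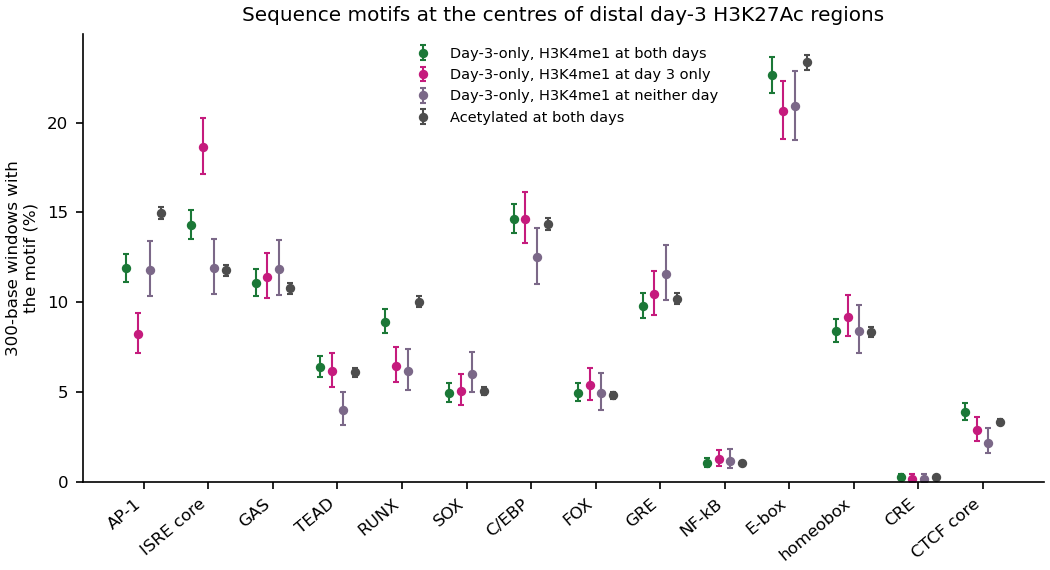
Share of central 300-base windows that held each of 14 motifs on either strand (y axis, %), for members by their H3K4me1 and for regions acetylated at both days; bars are 95% Wilson intervals. Members that lost H3K4me1 had the highest ISRE core share, 18.6%, and the lowest AP-1 share, 8.22%.

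Receptor sites of day 35 were rare on members. An RXR site of both hormone replicates lay on 52 members (0.465%, interval 0.355% to 0.609%), against 7.12% of all distal regions and 8.95% of the other distal regions, and 49 of the 52 were on members with H3K4me1 at both days. Without hormone, 15 members (0.134%) held an RXR site, against 4.15% of all distal regions. A VDR site lay on 11 members under hormone (0.0983%), all with H3K4me1 at both days, against 1.09% of the other regions. Under vehicle none of the 11188 did, where 21 of the 40754 other regions had one.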

How the data were processed

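Region lists of 26 libraries were used; the 2 input libraries came with none. Reads were mapped to mm9 with Bowtie and regions called with HOMER, per the submitters' processing notes, which give no versions; sequencing depth is not given in the files. Per the file values, each deposited list holds positions and an authors' peak score whose scaling is not stated, and it was used only to rank regions within a list. Regions of a histone list lay at least 2000 bp apart, and none ran beyond a chromosome end of the NCBIM37 genome, the same build.

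TSSs and gene bodies came from GENCODE M1. Overlaps, distances and Wilson intervals were computed in Python 3.11 with numpy and pandas, tested on simulated regions. Motifs were searched on both strands in 300-base windows around region centres. The 18 gene lists (225 genes) and 14 motifs, like the members themselves, were chosen with earlier results of these data known. Genes are those nearest by TSS or within 50 kb of the gene body. Named members were the 10 highest-scoring with and without H3K4me1 at day 35, the 10 genes nearest to most members, up to 6 genes per list and a set of fixed genes. Some further genes of the lists were named for a member within 50 kb that was nearest to another gene. Overlap of 50%, list strength, TSS set, TSS distance, width and gene window were varied. No test was run, because each mark and day had 1 library and regions are not replicates.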

Additional observations from a re-analysis of the deposited data

How the results depend on the processing

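The members' share of distal regions moved from 21.5% to 28.9% when an overlap of at least 50% of the region was needed, to 20.7% when no day-35 H3K27Ac region could lie within 1 kb, and to 9.96% among regions of 1 kb or wider. With the 50% overlap, day-35 H3K4me1 lay on 60.8% of members, H3K9Ac on 12.6%, H3K4me2 on 23.7% and RXR on 1.31%. Among regions of 1 kb or wider, H3K4me1 lay on 73.9%, H4K5Ac on 60.2%, H3K9Ac on 19.8%, H3K4me2 on 34.8% and RXR on 0.804%, and 8 interferon response genes had a member within 50 kb (18.98% of all genes). With the higher-scoring 50% of every list, H3K4me2 lay on 32.5%, RXR on 1.43% and the AP-1 letters on 12.8% of members (14.0% of the other regions), and 10 interferon genes had a member (22.7% of all genes). A 10 kb window left 12 of the 20 (22.6% of all genes). Searched over whole regions under 1 kb wide, AP-1 was found in 21.4% of members and 31.6% of the others. With 1 hormone replicate at a time, RXR lay on 0.492% (without replicate 1) to 0.742% (without replicate 2) of members. In each setting run, the members' shares for the 4 marks, RXR and AP-1 were below those of the other regions. Merging regions closer than 1 kb changed nothing, since the histone lists hold no such gaps. No paired analysis was possible because the results come from no test.

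Depth per library is unknown, each mark and day is 1 library, and signal below the authors' limit is not in the lists, so none of these shares shows how reproducible a loss is. Scores were compared only within a list.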
